A study of Mus musculus with 3 samples.

Results

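GW9662, which blocks the nuclear receptor PPAR gamma, was compared with its vehicle in mouse bone marrow-derived mast cells (BMMCs), which are mast cells grown out of bone marrow. The comparison uses 2 of the 3 arrays of the study: 1 array of cells kept for 12 h with 0.5 µM GW9662 and 1 array of cells kept for 12 h with the vehicle, DMSO. Its members are the genes whose signal was well above background on both of these arrays, 15794 of the 31131 genes that have a probe. All cells came from male C57BL/6 mice deficient in Pafah2, a phospholipase A2 that acts on oxidised phospholipids, listed as 12 weeks old in the sample characteristics, while the growth protocol gives a range of ages. All groups are labelled as deficient in Pafah2, controls included, and no wild-type cells enter the comparison. The labels do not say whether the cells of 1 array came from 1 mouse or from several. The remaining array of the study, of cells given the omega-3 epoxides 17,18-EpETE and 19,20-EpDPE in a ratio of 2 to 3 at 300 nM for 12 h, is quoted only beside results that its labelling touches. With 1 array per group there is no replicate error and no test. The differences below describe these arrays.

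The labels and the deposited values do not settle which treated array is which. The authors also deposited a table of normalised values, and in that table the vehicle column matched the vehicle scanner file at all spots. The column of the GW9662 sample matched the scanner file attached to the epoxide sample at all spots, and the epoxide column matched the GW9662 scanner file at all spots, while each treated column matched its own sample's file at 0.149% of spots. Each array is named here by the sample its scanner file is attached to, and "the GW9662 array" stands for the array so labelled. If the table is right, every value given for the GW9662 array belongs to the epoxide treatment.

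PPAR gamma is a ligand-activated transcription factor that pairs with a retinoid X receptor (RXR) on direct repeats of the half-site AGGTCA and is best known for genes of fat storage. GW9662 binds covalently inside its ligand pocket, and its selectivity over the related receptors PPAR alpha and PPAR delta is a matter of dose. PPAR alpha and PPAR delta act on similar sites and are known for genes that burn fatty acids, among them Cpt1a, which links long-chain fatty acids to carnitine, and the Cyp4a enzymes, which hydroxylate fatty acids at their omega end. Mast cells carry the high-affinity IgE receptor. Their activation is followed within minutes to hours by immediate early transcription factors such as Fos and Egr1, and then by cytokines and chemokines.

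The probes that carry most of the differences are shown here by a 30-base stretch each, written 5′ to 3′ as on the array, because whether 2 probes are separate readings depends on their sequence. Cpt1a has 2 probes, at chr19:3385374-3385433 and chr19:3384060-3384119 in the mm9 coordinates of the files, which share no run longer than 4 bases. Their first 30 bases are:
Cpt1a, bright probe: tcttaggactacttgctaacctctgttact
Cpt1a, dim probe: acagtcccccgaagtcttttgaatcggctc
The probes of Cyp4a12a (chr4:115005258-115005317) and Cyp4a12b (chr4:115111580-115111639) share no run longer than 6 bases, although the annotation in the files assigns the Cyp4a12a probe to both genes. Their first 30 bases are:
Cyp4a12a: atgcatatctgaaagagccaattttcaacc
Cyp4a12b: cctttcagcttacatttaagagtcttgcca
The probes of Cyp4a10 (chr4:115198463-115198522) and Cyp4a31 (chr4:115243923-115243982) are near copies. They differ at 6 of 60 positions and share a run of 27 bases, and the Cyp4a10 probe is also assigned to Cyp4a32. In their last 30 bases capitals mark the 4 positions that differ:
Cyp4a10: accttCcctgatggaCgCtctttaccCaaa
Cyp4a31: accttTcctgatggaTgTtctttaccTaaa
These probes hence count as 1 reading of Cyp4a10, Cyp4a31 and Cyp4a32 together. The first 30 bases of the Fos probe (chr12:86817900-86817959), which is spotted 10 times, and of the Klf2 probe (chr8:74845137-74845196), which is spotted once, are:
Fos: ggactttattttccagtagatagaaatcaa
Klf2: tgtatataagactatgaccgattgtatttc

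Levels are processed signals on the log2 scale, with 0 set at the 75th percentile of each array, and a ratio is the level on the GW9662 array minus that with vehicle, on the log2 scale. The arrays were of like brightness: 22918 of 43020 spots (53.3%) were well above background on the GW9662 array and 22489 (52.3%) with vehicle. Rows 181 to 400 of the 532 rows of the array, called the middle rows here, hold 41.9% of the spots and are reported apart. Of the genes measured, 6908 were read in the middle rows, 9089 outside them, and 203 of these on both sides by probes with several copies. Of spots above background on both arrays, the share that lay 1.5-fold or more apart was 0 to 0.587% in the 16 bands of 20 rows outside and 0.596 to 8.66% in the 11 bands inside. The middle rows were marked with earlier results of these data known, so that the ranges do not overlap is no separate finding. At the edges the bands were alike, with 0.596% in rows 181 to 200 and 0.587% in rows 401 to 420.

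**Figure D1:**
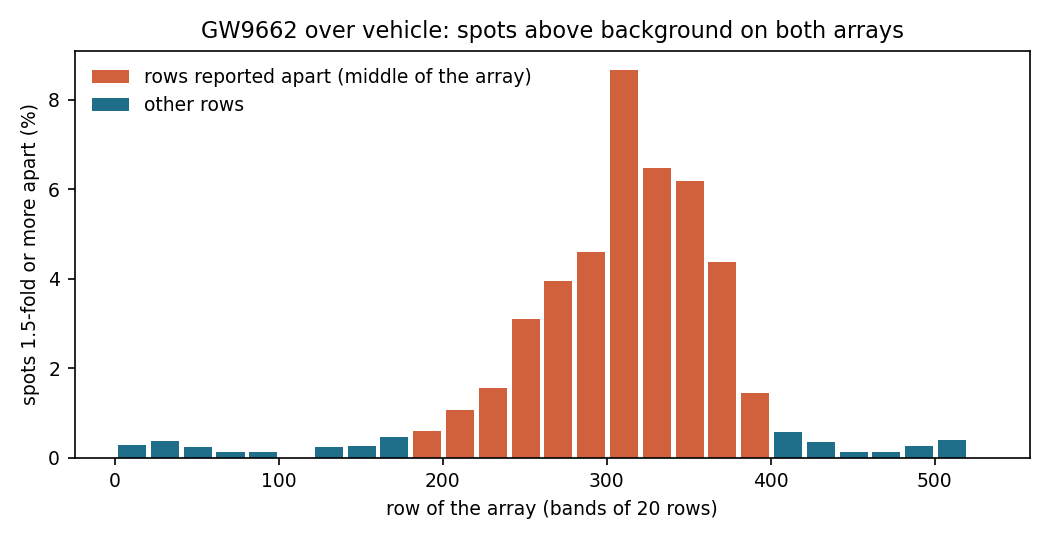
Percentage of spots above background on both arrays whose signal differed 1.5-fold or more between the GW9662 and the vehicle array, for each band of 20 array rows (the last band is shorter). The bars of the middle rows, in orange, reach 8.66% in rows 301 to 320, while none of the other bars, in blue, exceeds 0.587%. The lowest orange bar, of rows 181 to 200, stands at 0.596%. The middle rows were marked with earlier results of these data known.

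The excess of differences in the middle rows lay among dim genes. Genes are called bright here when the brighter of the 2 arrays had a level of at least 0.22, the median of all genes measured. Among bright genes the ratios had an SD across genes of 0.10 both in the middle rows (3454 genes) and outside (4645 genes). Among dim genes the SD was 0.42 in the middle rows and 0.17 outside. Copies of the same probe were compared at another boundary, the background call. On the GW9662 array, among probes below background, 10.4% of copies in the middle rows and 0.486% outside were at least 2-fold off their probe's median, against 0 of 923 and 0 of 1270 copies of probes well above background. Bright genes in the middle rows thus had a spread of ratios like that of bright genes elsewhere, and dim measured genes there had a wider one. The copies of measured probes, of which 100 of 221 were dim, did not show that width. Spots flagged as outliers had been left out before copies were compared, however. Middle-row copies of Erbb2 at -1.78 and -1.08 with vehicle were among the copies that gave no ratio. The agreement of the copies kept therefore cannot show how far a dim gene read by 1 spot there can be off.

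The cells carried the markers of mast cells on both arrays. Of 12 mast cell markers, 11 were above background on each array and Tpsab1, a tryptase, on neither. The dimmest of the 11 was Hdc, at -4.29 with vehicle and -4.51 on the GW9662 array. Fcer1a, the IgE-binding chain of the receptor, stood at 6.93 with vehicle and 6.83 on the GW9662 array, and Kit, the stem cell factor receptor, had 5.73 and 5.75. The summed linear signal of the markers, in units of the 75th percentile, was 704 with vehicle and 637 on the GW9662 array. For macrophage markers these sums were 1.89 and 1.84, for neutrophil markers 50.5 and 44.9, and for T cell markers 2.52 and 2.19. Basophil markers, a list that shares Fcer1a, Cpa3 and Ms4a2 with that of mast cells, summed to 378 and 316. Cpa3 was the brightest member of both lists and the one that differed most, at 7.61 with vehicle and 7.19 on the GW9662 array. Both sums therefore lean on this gene. On each array 8 of the 9 basophil markers were above background, so the lists do not separate the 2 cell types. Dendritic cell markers summed to 39.2 and 35.8, with Siglech alone at levels of 5.27 and 5.145. Csf3r, the receptor for granulocyte colony-stimulating factor, made up most of the neutrophil sum, with levels of 5.6 and 5.42. Mpo, the defining granule enzyme of neutrophils, was below background with vehicle and at -2.43 on the GW9662 array, a difference of at least 5.34-fold that was read by 1 spot in the middle rows. A second Mpo probe, outside those rows, was below background on both arrays, and Elane, another granule protease of neutrophils, had 0.73 and 0.66. In such bulk RNA, fewer cells of a type and less RNA per cell cannot be told apart. The Pafah2 probe was well above background on both arrays, at 0.03 with vehicle and 0.07 on the GW9662 array. The labels do not give its place relative to the deleted part, so it does not check the deficiency.

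Few genes differed by much outside the middle rows. Of the 9089 genes read there, 8 were 1.5-fold or more higher on the GW9662 array (0.088%) and 13 were 1.5-fold or more lower (0.143%). At 2-fold or more, 3 were higher (0.033%) and 0 were lower (0.0%). Rows 401 to 420, next to the middle rows, held 2 spots that were 2-fold or more higher. This band had the largest share of spots 1.5-fold apart outside, 0.587%. In the middle rows, 53 of 6908 genes were 2-fold or more higher (0.767%) and 74 were 2-fold or more lower (1.07%), and at 1.5-fold these counts were 103 (1.49%) and 169 (2.45%). Restricted to bright genes, the 1.5-fold counts were 3 higher and 3 lower of 3454 in the middle rows (0.0869% each) and 1 higher (0.0215%) and 2 lower (0.0431%) of 4645 outside. The median ratio was -0.022 over all genes, and 57.8% of genes had a negative ratio. The bright genes past 1.5-fold were Cyp4a12a, Cyp4a12b and Cpt1a on the high side and Klf2, Egr1, Fos and Csrnp1 on the low side, with Cpt1a and Fos read on both sides of the row boundary.

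**Figure D2:**
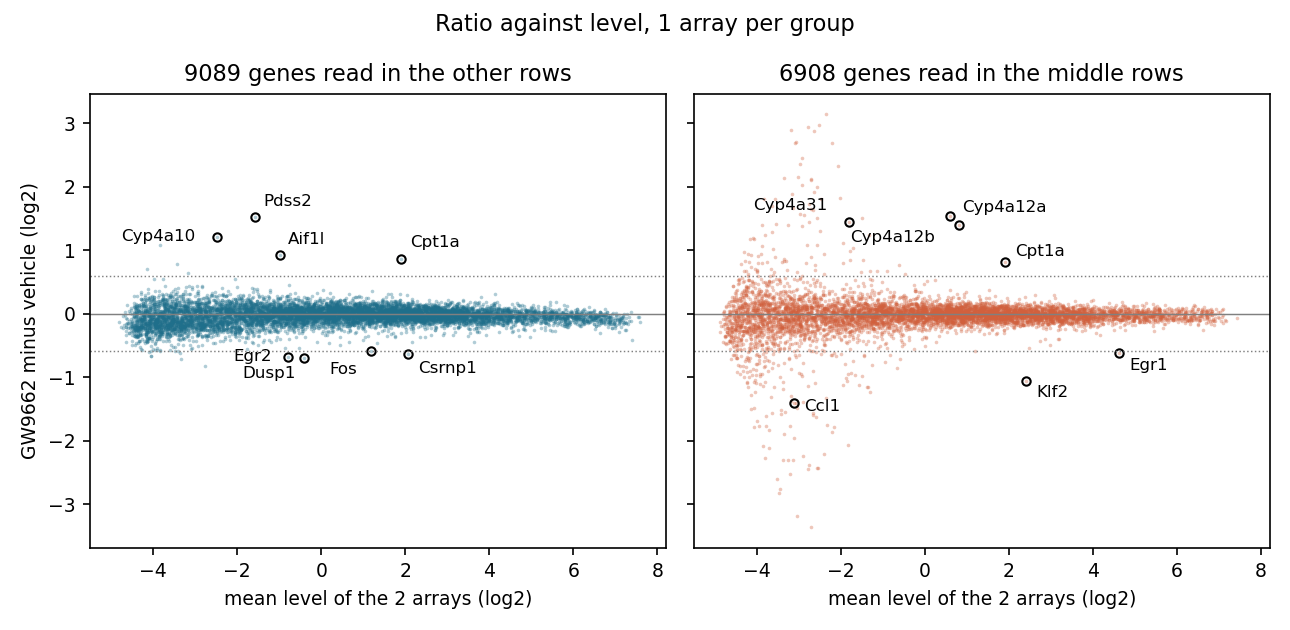
Log2 ratio of the GW9662 over the vehicle array (vertical axis) against the mean level of both arrays (horizontal axis), with 1 point per gene. The left panel holds the 9089 genes read outside the middle rows and the right panel the 6908 read inside. Dotted lines mark 1.5-fold. Dim genes scatter widely in the right panel only, and Cpt1a, Cyp4a12a, Cyp4a12b, Klf2, Egr1, Fos and Csrnp1 stand off the bright part of the cloud.

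Cpt1a, the outer mitochondrial membrane enzyme that commits long-chain fatty acids to oxidation, was higher on the GW9662 array in every reading. The bright probe is spotted 10 times, 4 times in the middle rows and 6 times outside. Its copies had levels from 1.35 to 1.56 with vehicle and from 2.25 to 2.39 on the GW9662 array, so the copies of the arrays did not overlap. The ratio was 0.83 ± 0.043 (SD over 10 copies of 1 pair of arrays), with a mean of 0.81 in the middle rows and 0.85 outside, or 1.78-fold. This SD covers spot error alone. The separate dim probe, read once in the middle rows, had -3.58 with vehicle and -2.50 on the GW9662 array, a ratio of 1.08. Among the 3348 genes with 2 or more measured probes, Cpt1a was the only gene whose probes were all 1.5-fold or more higher, and none had all probes 1.5-fold or more lower. On the array labelled epoxides the 10 copies had a mean level of 1.47 and ratios to vehicle between -0.08 and 0.07.

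Probes spotted 10 times give a measure of spot error for other genes as well. There were 221 such probes measured on both arrays. The median SD of the ratio was 0.037 among the copies left after outlier spots were dropped. Cpt1a had the highest mean ratio of the 221 and Fos the lowest, and 217 lay between -0.30 and 0.30. Fos, a subunit of the AP-1 transcription factor, had copies at 1.37 to 1.55 with vehicle and at 0.81 to 0.95 on the GW9662 array where both arrays gave a reading, without overlap. Its ratio was -0.59 ± 0.042 (SD, 9 copies), negative in all 9. Smaller ratios were also alike among copies. One sign in every copy was common: of the 221 probes, 43 had every copy negative and 55 every copy positive. Tnf, the inflammatory cytokine, had -0.29 ± 0.033 and Cdkn1a, the cell cycle inhibitor p21, had -0.24 ± 0.020, each negative in 10 of 10 copies. Eci3, a peroxisomal enoyl-CoA isomerase, had 0.18 ± 0.029 and Acaa2, the mitochondrial thiolase of the last step of beta-oxidation, had 0.17 ± 0.031, each positive in 10 of 10 copies. Il4, a cytokine of type 2 immunity, had -0.13 ± 0.033, negative in 10 of 10. Them4, an acyl-CoA thioesterase, had 0.30 ± 0.074 at a dim level of -2.75 with vehicle. Pparg itself, which encodes the target of GW9662, was dim at -3.75 with vehicle. Its ratio of -0.15 ± 0.12 (SD, 8 copies) was negative in 7 copies and positive in 1, the only middle-row copy that gave a ratio. Its other middle-row copies were dropped as outliers. They stood at -3.57 with vehicle and at -4.06 and -2.74 on the GW9662 array. These genes, other than Cpt1a and Pparg, were picked from the 221 after their values were seen.

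**Figure D3:**
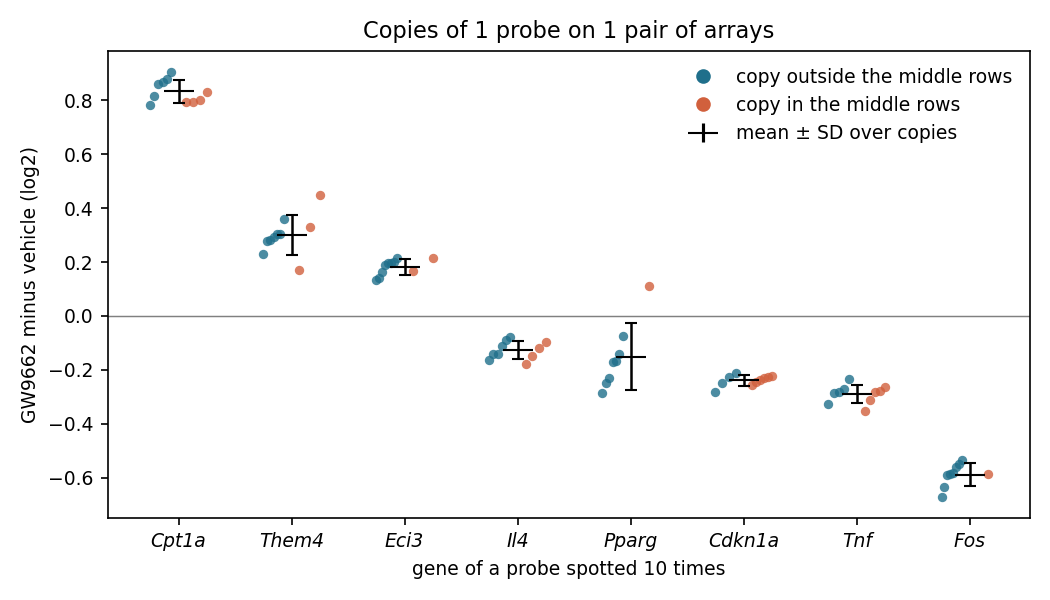
Log2 ratio of the GW9662 over the vehicle array for each copy of probes that are spotted 10 times, by gene, with outlier spots left out. Blue points are copies outside the middle rows, orange points copies inside, and black bars the mean and SD over copies of 1 pair of arrays. All copies of Cpt1a lie between 0.78 and 0.91 and all copies of Fos between -0.67 and -0.54, with no gap between the blue and orange copies, while the copies of the dim gene Pparg spread on both sides of 0.

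The 250 bases before the start of Cpt1a were searched for the direct repeat AGGTCANAGGTCA, the site on which PPAR and RXR pair, for its half-site AGGTCA, which also lies within the direct repeat, for the cAMP response element TGACGTCA and for the AP-1 site TGANTCA, on both strands. The window (chr19:3323051-3323300, + strand, RefSeq on GRCm38.p6) held no full repeat and 1 half-site on the opposite strand, which starts 94 bases before the gene start and is in capitals:
Cpt1a: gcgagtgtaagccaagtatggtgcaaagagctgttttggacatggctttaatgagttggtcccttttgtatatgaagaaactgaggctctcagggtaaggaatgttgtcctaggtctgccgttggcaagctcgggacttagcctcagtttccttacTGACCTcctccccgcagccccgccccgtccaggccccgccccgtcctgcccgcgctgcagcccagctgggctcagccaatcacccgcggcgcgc
Of 32851 windows of this length, 4607 held the half-site, 2217 the AP-1 site and 11 (0.0335%) the full repeat. A match is a string of letters and not a shown binding site, and sites farther from the start were not searched.

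The Cyp4a genes, which encode fatty acid omega-hydroxylases, were higher on the GW9662 array by the brightest probe of each measured gene, and the pair Cyp4a12a and Cyp4a12b had the highest ratios of all bright genes. Cyp4a12a stood at -0.16 with vehicle, at 1.37 on the GW9662 array and at -0.18 on the array labelled epoxides, a ratio to vehicle of 1.53 (2.89-fold). Cyp4a12b had 0.11, 1.51 and 0.12 in the same order, a ratio of 1.40 (2.63-fold). Both were read by 1 spot in the middle rows, by probes of unrelated sequence. Cyp4a10, read outside the middle rows, had -3.09 with vehicle and -1.88 on the GW9662 array, a ratio of 1.21 (2.31-fold), and Cyp4a31, whose probe is nearly the same, had -2.52 and -1.08, a ratio of 1.44. Of the 8 listed genes 4 were measured, and their brightest probes were all higher on the GW9662 array, but these are not 4 separate readings, given the near copies and shared assignments above. Cyp4a14, Cyp4a29, Cyp4a30b and Cyp4a32 were not well above background on both arrays. Other measured probes of Cyp4a10 and Cyp4a31 had ratios of -0.20 and -0.20 at vehicle levels of -3.94 and -3.48, so the dim members of the family were not alike across probes.

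Other genes of fatty acid oxidation in mitochondria differed far less than Cpt1a, and those read outside the middle rows had a median near 0. Of 24 listed genes, 22 were measured, with a median of 0.11 against -0.022 over all genes, and only Cpt1a passed 1.5-fold. Without Cpt1a, 14 of 21 were positive and 7 negative, with a median of 0.10. The 11 of these read in the middle rows had a median of 0.11, and the 11 read outside had 0.0065, with 6 positive and 5 negative, Acaa2 being read on both sides. Outside, they ran from -0.14 for Eci1 and -0.12 for Acad10 to 0.17 for Etfdh, 0.18 for Hadhb and 0.19 for Acaa2. Slc25a20, the carrier that takes acylcarnitines across the inner membrane, went from -2.06 to -1.80 (0.26), Hadh, the dehydrogenase of short-chain intermediates, from 1.83 to 2.08 (0.24) and Acadl, the long-chain acyl-CoA dehydrogenase, from 1.71 to 1.91 (0.20), all read in the middle rows. Of 21 measured peroxisomal oxidation genes 15 had negative ratios (71.4%, against 57.8% of all genes), with a median of -0.057. Their members farthest from 0 were Acot8, an acyl-CoA thioesterase, at -0.19, Pex11a, a factor of peroxisome division, at -0.18, and Ehhadh, the bifunctional enzyme of peroxisomal beta-oxidation, at -0.14.

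Lists of PPAR targets other than Cpt1a and Cyp4a had medians near that of all genes. Among 28 listed targets of PPAR alpha and PPAR delta, a list that also holds Cpt1a and Slc25a20, 20 were measured, 11 with positive and 9 with negative ratios, with a median of 0.0062. Among 25 listed fat storage targets of PPAR gamma, 12 were measured, 4 positive and 8 negative, with a median of -0.020 and none past 1.5-fold. Plin2, the coat protein of lipid droplets, had 1.06 with vehicle and 1.09 on the GW9662 array. Angptl4, an inhibitor of lipoprotein lipase, had 1.44 and 1.60, and the lipase gene Lpl had -4.24 and -4.0. Slc27a1, a fatty acid transporter, had -1.41 and -1.66, and Aqp7, a glycerol channel, had -3.48 and -3.68. Pdk4, Fabp4 and Cyp4a14 were below background on both arrays and Cd36, a fatty acid receptor, on the GW9662 array, so these often used targets gave no ratio.

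The receptors and their partners lay close to vehicle apart from Rxrg. Ppara had a ratio of -0.09, Ppard -0.08, Rxra -0.12 and Rxrb -0.14, and the 20 measured receptors and coregulators had a median of -0.034 with 12 negative. Rxrg, which encodes RXR gamma, had 1.22 with vehicle, 0.85 on the GW9662 array and 0.51 on the array labelled epoxides, by a bright probe outside the middle rows. Its other probe was not well above background. Ep300, an acetyltransferase that serves as coactivator, had the highest ratio of the list at 0.12. Targets of the liver X receptors, which share RXR as partner, had a median of -0.023 over 13 genes. Abca1, the cholesterol efflux pump, had -1.21 with vehicle and -0.86 on the GW9662 array (0.35), and Smpdl3a, a phosphodiesterase, had -3.83 and -4.17 (-0.34), both dim and read in the middle rows.

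Most immediate early transcription factors were lower on the GW9662 array. Of 23 listed genes 19 were measured, and 15 had negative ratios (78.9%, against 57.8% of all genes). The median was -0.36 against -0.022 over all genes, and it was also -0.36 over the 13 members read outside the middle rows, of which 10 were negative. Past 1.5-fold were 0 members in the high direction and 4 in the low direction, 2 of them counted outside the middle rows, where the background is 0.143%. Outside the middle rows, Egr2, a zinc finger factor of the EGR family, went from -0.46 with vehicle to -1.14 (-0.68), Atf3, a stress-induced factor, from -4.01 to -4.56 (-0.55), Nr4a1, an orphan nuclear receptor induced by antigen, from 0.89 to 0.44 (-0.45) and Jun, an AP-1 subunit, from 5.16 to 4.80 (-0.36). Csrnp1, a nuclear factor that is no member of the list, went from 2.39 to 1.75 (-0.64) and was the lowest of the bright genes read there. In the middle rows, Klf2, a Krüppel-like factor, went from 2.95 to 1.89 (-1.06, or 2.08-fold), Egr1 from 4.93 to 4.31 (-0.62) and Ier2, a small early response protein, from 0.48 to 0.04 (-0.44). Of the 12 bright genes with the lowest ratios outside the middle rows, 4 were on this list, and of the 10 lowest inside, 5 were. Fos is in both counts. Of all 15794 genes measured, bright or dim, 19 are on the list. The list was chosen with earlier results of these data known, so these counts are a description and no independent support. The list was not uniform: Jund, Fosl2 and Nr4a2 had ratios of 0.01 to 0.02 and Klf4 had 0.29, at a dim level of -2.76 with vehicle.

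**Figure D4:**
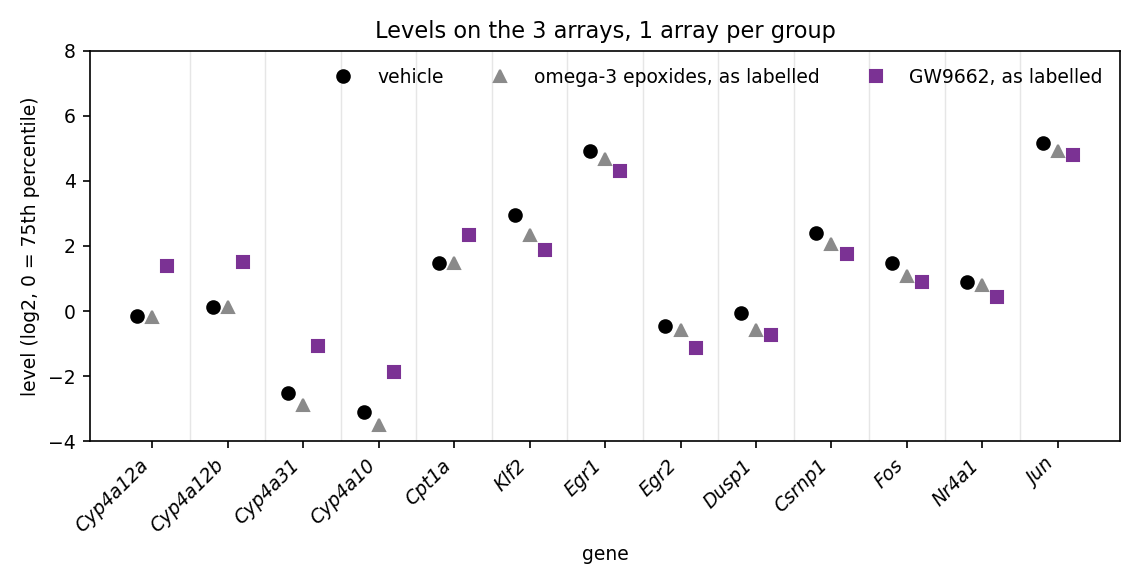
Level of 13 genes on each of the 3 arrays, in log2 units with 0 at each array's 75th percentile. Circles are vehicle, triangles the array labelled epoxides and squares the array labelled GW9662. Levels are to be compared within a gene only. For the Cyp4a genes and Cpt1a the squares lie above both other symbols, and for Klf2 to Jun the squares lie lowest.

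Among feedback genes of the same signalling, single genes were lower on the GW9662 array. Dusp1, a phosphatase that switches off MAP kinases and is itself an early gene, went from -0.05 to -0.75 (-0.69), outside the middle rows. In its window before the start (chr17:26508473-26508722, - strand, RefSeq on GRCm38.p6) lies a cAMP response element, TGACGTCA, that starts 143 bases before the gene start, as in 1.55% of all windows. Of 4 windows of Csrnp1, at different starts, 1 held 2 AP-1 sites and another held 1 half-site. The windows of Fos, Klf2, Nr4a1, Egr2, Atf3, Jun, Klf6, Tnf and Pdss2 held none of the motifs searched. Dusp2 had -0.53 and Dusp4 -0.26, both phosphatases of MAP kinases, and Errfi1, an inhibitor of the EGF receptor, had -0.38, all in the middle rows and dim. Over the 12 measured MAP kinase phosphatases and Sprouty-type inhibitors the median was -0.087 and 9 were negative. Among 16 genes of the NF-kappa B system 12 were negative, with a median of -0.042. Both shares are 75%, against 57.8% of all genes, and the second median lies near the -0.022 of all genes. Nfkbiz, an early inducible member of the I kappa B family, had -0.41 outside the middle rows, whereas Nfkbia, which encodes the main I kappa B, had 0.01. Socs3, an inhibitor of cytokine receptors, went from 2.97 to 2.54 (-0.42), and Plk3, a polo-like kinase, from 1.56 to 1.1 (-0.46).

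Several cytokines and chemokines were lower on the GW9662 array. Of 13 measured cytokines and growth factors 10 were negative (76.9%, against 57.8% of all genes), with a median of -0.18, and -0.14 over the 10 read outside the middle rows. Osm, which encodes oncostatin M, went from 0.69 to 0.20 (-0.49) outside those rows, Lif, a cytokine of the same family, from -0.35 to -0.68 (-0.34) and Il13, a type 2 cytokine, from -1.43 to -1.70 (-0.26), the latter pair inside them. Il6 had 4.90 and 4.64. None passed 1.5-fold. Of 9 measured chemokines 6 were negative (66.7%, near the share of all genes), 3 of 5 outside the middle rows, with a median of -0.16. Ccl4, a chemokine that draws T cells and monocytes, went from 2.75 to 2.21 (-0.53) in the middle rows and Ccl7, a monocyte chemokine, from -1.55 to -1.93 (-0.39) outside. Ccl1 had the largest ratio of the list at -1.40, at dim levels of -2.42 and -3.82 on 1 spot of the middle rows. Ccl2, at 5.96 and 5.84, and Ccl6, at 3.82 and 3.87, were nearer to 0. The array labelled epoxides, set against the same vehicle array, had ratios of -1.52 for Ccl1, -0.55 for Ccl4, -0.36 for Osm, -0.11 for Il13 and 0.02 for both Tnf and Il6.

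The mast cell programme differed little. Granule proteases had a median of -0.020 over 17 measured genes with 11 negative, and none passed 1.5-fold. Cpa3, the mast cell carboxypeptidase, was the exception among abundant genes, with 7.61 on the vehicle array, 7.19 with GW9662 (-0.42) and 6.93 on the array labelled epoxides. Ctss, a lysosomal cysteine protease, had -2.49 and -2.18 (0.31). The 28 measured genes of IgE receptor signalling had a median of -0.031. Lcp2, the adaptor SLP-76, went from 0.41 to 0.79 (0.38) in the middle rows. Lineage factors and growth receptors had a median of -0.084 with 17 of 23 negative (73.9%), and 10 of the 11 members read outside the middle rows were negative. Runx1, a haematopoietic transcription factor, had -0.34 by one probe, from 3.06 to 2.72, and -0.015 by the other, from 2.32 to 2.30, both bright and outside the middle rows. Genes of amine and heparin synthesis had a median of -0.038, with Tph1, the first enzyme of serotonin synthesis, at 7.66 and 7.52. Inhibitory receptors and regulators of Src kinases had a median of -0.013, with Csk, which inactivates Src-family kinases, going from 1.0 to 1.24 (0.24) and Lilrb4a, an inhibitory receptor, from 7.24 to 7.03 (-0.21). Genes of leukotriene and prostaglandin synthesis had a median of 0.0033.

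**Figure D5:**
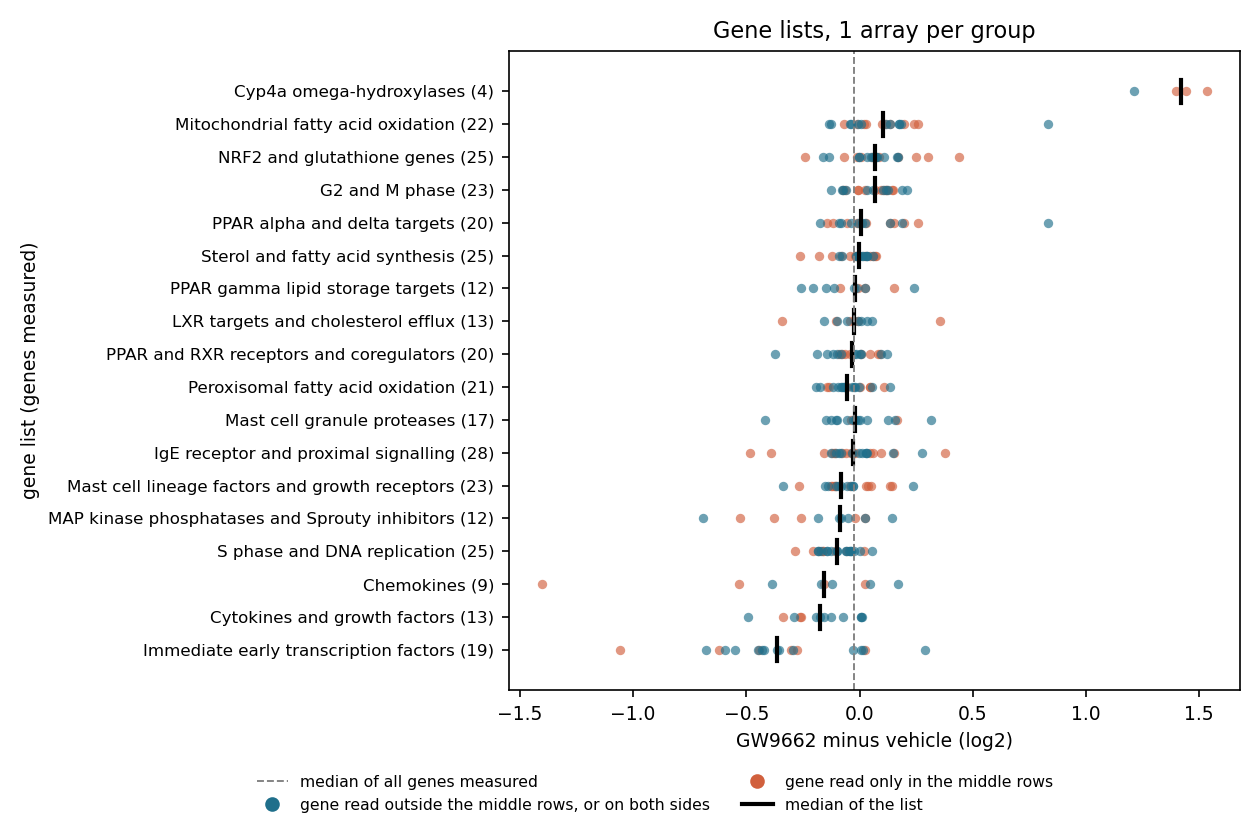
Log2 ratio of the GW9662 over the vehicle array for each measured member of 18 of the 27 gene lists, 1 row per list with its number of measured genes. Blue points were read outside the middle rows or on both sides and orange points only inside them, black ticks are list medians, and the dashed line is the median of all genes measured (-0.022). The Cyp4a list lies highest with a median of 1.42 and immediate early factors lowest at -0.36, while most ticks lie within 0.1 of 0.

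Of the 27 lists, 22 had medians between -0.1 and 0.1. Their counts of signs are given beside the 57.8% of all genes that were negative, and no list was tested. Genes of S phase and DNA replication had negative ratios in 22 of 25 members (88%), median -0.10, and -0.061 over the 17 read outside the middle rows, with Gins2, a part of the replicative helicase, at -0.18 and Rfc3, a clamp loader subunit, at -0.29. G2 and M phase genes had positive ratios in 15 of 23, median 0.07, with Nusap1, a spindle protein, at 0.21 and Ttk, a spindle checkpoint kinase, at 0.19. Glycolysis and hypoxia genes were negative in 20 of 25 (80%), median -0.084, with Ldha, lactate dehydrogenase, going from 6.70 to 6.53. Antioxidant genes under NRF2 were positive in 18 of 25, median 0.07, with Gclm, a subunit of the first enzyme of glutathione synthesis, going from 0.78 to 1.08 and Gsta3, a glutathione transferase, from -3.98 to -3.54, both in the middle rows. Genes of the unfolded protein and amino acid stress responses were negative in 17 of 23 (73.9%), with a median of -0.034, close to that of all genes, and with Ddit3, the factor CHOP, going from 0.66 to 0.38 and Ppp1r15a, a phosphatase subunit that restores translation, from 3.84 to 3.58.

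The lists of sterol and fatty acid synthesis, the respiratory chain and ribosomal proteins had medians of -0.0036, -0.0063 and -0.035. Insig1, which holds the sterol sensor in the endoplasmic reticulum, had -0.26. The 10 measured epoxide hydrolases, PAF acetylhydrolases and related enzymes had 9 positive ratios and 1 negative (10% negative, against 57.8% of all genes). Their median was 0.030. The negative member, the epoxide hydrolase gene Ephx3, lay farthest from 0 at -0.26, outside the middle rows. Ephx1, the microsomal epoxide hydrolase, had 0.16 in the middle rows. None of the members of these lists other than Pdss2 passed 1.5-fold in either direction.

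Further genes that passed 1.5-fold outside the middle rows were mostly dim and rest on 1 spot each. On the high side these were Pdss2, a subunit of the enzyme that makes the side chain of coenzyme Q, from -2.34 to -0.82 (1.53), BC052040 from -4.38 to -3.30 (1.07), Aif1l, an actin-binding protein, from -1.45 to -0.53 (0.93), Uba3, a subunit of the NEDD8-activating enzyme, at 0.78, Tead1, a transcription factor of the Hippo pathway, at 0.71 and the homeobox factor Emx2 at 0.64. A second Pdss2 probe outside the middle rows had -0.15, at -4.19 with vehicle. The measured Tead1 probe was the only one of 3 above background on both arrays, and another had -0.90 and was above background with vehicle only. On the low side, besides Dusp1, Egr2, Csrnp1 and Fos, 9 dim features ran from -0.83 for Fbxw13, an F-box protein, to -0.59 for Galp, a neuropeptide, at vehicle levels between -3.79 and -2.35. Of these 9, 7 were lower still on the array labelled epoxides. Bright genes on the high side outside the middle rows, after Cpt1a, were Clk1, a kinase of splicing factors, from 1.04 to 1.40 (0.36), Plagl2, a zinc finger factor, from 0.04 to 0.37 (0.32), Tbc1d20, an activator of Rab GTPase hydrolysis, from 1.44 to 1.75 (0.31) and C5ar2, a receptor for complement C5a, from 0.51 to 0.82 (0.31).

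Most calls of the middle rows could not be checked by a second probe. Of the 127 genes 2-fold or more apart there, 3 were bright (Klf2, Cyp4a12a and Cyp4a12b) and 8 had another measured probe. For 5 of these another probe lay outside the middle rows, with ratios between -0.12 and 0.12. Other probes inside those rows also lay near 0. They had -0.0019 for Mdm1 (2.69 by the probe read), 0.09 for ENSMUST00000111423 (2.03), 0.12 for Clcn5 (-1.12) and -0.20 for Cyp4a31 (1.44). Smyd3, a methyltransferase, had 2.88 by the probe inside and -0.12 by the probe outside, and Spata21, a spermatogenesis gene, had -1.76 and -0.11. Genes above background on 1 array only followed the same split. There were 614 genes above background on the GW9662 array alone in the middle rows and 159 outside, and 161 and 6 of these were at least 2-fold apart when the level on the dimmer array was replaced by the dimmest level called above background there, unless it was itself above that. Those above background with vehicle alone numbered 440 and 62, with 217 and 6 at least 2-fold apart. Outside the middle rows these genes included Tpm2, a muscle tropomyosin, at least 13.8-fold lower on the GW9662 array. Krt6a, a keratin of stratified epithelium, was at least 13.3-fold lower there. Tpm2 stood at -0.99 with vehicle and -4.98 on the array labelled epoxides, and Krt6a at -1.29 and -6.88. Npy6r, a neuropeptide Y receptor, was at least 8.00-fold higher on the GW9662 array. Each is a reading of 1 spot.

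With the authors' value table in place of the scanner files, the column named GW9662 gave -0.03 for Cpt1a, -0.02 for Cyp4a12a and 0.0057 for Cyp4a12b, and the high values stood in the column named epoxides. The median of the immediate early list was -0.25 with that column, so its sign did not turn. Klf2 had -0.62 there, Fos -0.41, Dusp1 -0.52, Egr1 -0.27 and Egr2 -0.13. Both treated arrays are set against the same vehicle array, so a low or high reading on the vehicle array would move both ratios alike.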

How the data were processed

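Cy3-labelled cRNA from 200 ng of total RNA was hybridised to 1 array per group with 60-base probes, per the labels. Agilent Feature Extraction 11.5.1.1 was used per the submitters' processing notes. The deposited processed signal is a linear intensity from which background was subtracted within the array, per the file headers. The authors' value table is a linear ratio of that intensity to the array's 75th percentile (quotients constant within 0.001).

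Levels are log2 processed signal with the array's upper quartile over all spots but controls set to 0. Outlier spots were left out (230 on the vehicle and 251 on the GW9662 array), no spot was saturated, and copies of a probe were averaged. A probe was taken as measured if the majority of its copies clearly exceeded background on each array, and a gene was read by its brightest probe. Of 39429 probes, 28324 were named through RefSeq and the others as in the files. No test was run. Counts are given at 2-fold and 1.5-fold. The marked middle rows, the genes and the lists (27 lists, 492 of 593 genes measured) were chosen with earlier results of these data known. Named genes were the 12 highest and lowest bright genes outside and 10 inside the middle rows, genes with agreeing probes, those 2-fold apart outside, the 4 members of each list farthest from 0, and a fixed set; other features past 1.5-fold outside, genes above background on one array only, genes of second-probe checks and a few further list members were named after their values were seen. Lists overlap, and some of their members are not reported here. The counting steps were tested on simulated data.

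Alternatives were, with limma 3.58.1 in R 4.3.3, cyclic loess, quantile normalization and normexp (offset 50), and further another percentile base, the value table, averaging all probes of a gene, other filters on dim probes, outlier spots kept, and a trend in probe GC content and signal removed (Python 3.11.15, pandas 2.3.3).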

Additional observations from a re-analysis of the deposited data

How the results depend on the processing

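Counts of genes 2-fold or more apart in the middle rows (53 higher, 74 lower) were 38 and 49 with normexp, 21 and 211 with the value table, 935 and 992 with no filter on dim probes, and 2 and 1 among bright genes. Counts 1.5-fold or more apart outside those rows (8 higher, 13 lower) were 5 and 4 with normexp, 10 and 7 with quantile normalization, 99 and 747 with the value table, 14 and 18 when all probes of a gene were averaged, 100 and 287 with no filter, and 1 and 2 among bright genes. With no filter 31063 genes were tested and among bright genes 7982, in place of 15794. The counts moved by more than these numbers of genes did. The value table holds the other treated array. Apart from the value table, the cause of these moves was not tested. The genes higher made up 41.7% of 2-fold calls in the middle rows, 9.05% with the value table and 66.7% among bright genes.

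Signs were followed for 74 genes: the extreme bright genes, those past 1.5-fold outside the middle rows, those with agreeing probes and the fixed set. Of these, 73 kept the sign of their ratio under every alternative that gave a value other than the value table. Other named members of the lists were not followed singly. With the value table, Cyp4a10 had -0.42, Cyp4a31 -0.38, Cyp4a12a -0.021 and Pdss2 -0.048. When all probes of a gene were averaged, Cyp4a10 had 0.51, Cyp4a31 0.62 and Pdss2 0.69. Apart from the value table, Cpt1a ran from 0.82 to 0.96, Klf2 from -1.06 to -1.04 and the immediate early median from -0.36 to -0.32. The mitochondrial oxidation median, Cpt1a included, ran from 0.06 to 0.13 and was -0.063 with the value table. List medians kept their sign in 21 of 27 lists with quantile normalization and with the GC and signal trend removed. Granule proteases and ribosomal proteins turned under both and under cyclic loess. Spot signal over background limits dim genes, and 1 array per group leaves the error between cultures, labellings and hybridisations unmeasured. No paired analysis was possible because each group has 1 sample.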
